A study of Mus musculus with 15 samples.

Results

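The immunity-related GTPases (IRGs) are a family of interferon-inducible proteins of mice, and 8 of their genes were followed here out of 34432 genes in the deposited tables: Irgm1, Irgm2, Igtp, Iigp1, Tgtp1, Tgtp2, Ifi47 and Gm4951. They were taken by name, by a rule that uses no expression value, although earlier results of these data were known when the set was chosen. All 8 were present in both tables. CT26 is a mouse colon carcinoma line, and 15 RNA-seq libraries of it were made in 5 groups of 3 biological replicates. In the knockdown experiment, shPrmt1 cells carried a stably integrated, doxycycline-inducible short hairpin RNA against Prmt1 and received doxycycline for 3 days, and shControl cells carried a control hairpin. In the inhibitor experiment, wild-type CT26 cells received vehicle, MS023 at 6 µM or GSK3368715 at 6 µM for 48 h. Prmt1 encodes the main type I protein arginine methyltransferase, and both compounds inhibit type I enzymes. The comparisons ask how the family responds when PRMT1 is depleted or inhibited. The sources used here do not say whether the shControl cultures also received doxycycline, and each condition was tested in 1 cell line.

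Interferons act through receptor-associated JAK kinases and STAT transcription factors, which drive IRG genes from promoter elements named ISRE (interferon-stimulated response element) and GAS (gamma-activated site). The proteins are best known for cell-autonomous defence. Effector IRGs load onto the vacuoles of parasites such as Toxoplasma gondii and break them open, and regulator IRGs sit on the cell's own membranes and keep the effectors inactive there. Irgm1, Irgm2 and Igtp (also named Irgm3) are the regulators. Iigp1 (Irga6), Tgtp1 and Tgtp2 (both Irgb6) and Ifi47 (Irgd) are effectors, and Gm4951 encodes a further interferon-gamma-inducible GTPase of the family.

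The 8 genes lie in 3 clusters of the mm10 genome. Irgm1 (chr11:48861968-48871683, minus strand), Tgtp1 (chr11:48985327-48994172, minus), Tgtp2 (chr11:49057194-49064206, minus) and Ifi47 (chr11:49076587-49096974, plus) share a span of 235.0 kb on chromosome 11. Igtp (chr11:58199556-58207591, plus) and Irgm2 (chr11:58199618-58222782, plus) follow 9102.6 kb further on. Gm4951 (chr18:60212080-60247820, plus) and Iigp1 (chr18:60376027-60392634, plus) lie on chromosome 18. All 8 are annotated as protein coding, and the reads counted are those on their annotated transcripts. Igtp and Irgm2 share 162 bases of annotated exon on the same strand, and Tgtp1 shares 223 bases with its neighbour Gm12185, so a small part of the reads cannot be assigned to 1 gene of each pair from position alone. Ifi47 shares 111 exon bases with Olfr56 on its own strand and 106 with the pseudogene Gm12188 on the other strand.

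Tgtp1 and Tgtp2 are near-identical copies. Their longest coding transcripts, of 2823 and 2810 bases, were 99.33% identical over the whole alignment, and 71.32% of all 150-base windows of Tgtp1 also occurred in Tgtp2. No other pair of members shared such a window, and the other 27 pairs were 42.6% to 65.29% identical. The split between Tgtp1 and Tgtp2 therefore depends on how the counting program divided shared reads. The change of their sum is given beside the single changes in each comparison. Levels per length and shares of the members' total list the copies singly.

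RefSeq promoters (GRCm38.p6, the build that mm10 names) were at hand for 6 members: Irgm1, Irgm2, Igtp, Tgtp1, Tgtp2 and Ifi47. Iigp1 and Gm4951 were not searched. The 250 bases before each start were searched on both strands for the ISRE core GAAANNGAAA and the GAS TTCNNNGAA. The sequences below are shown because 4 of the 6 carried both motifs in the same arrangement, with the GAS ending 2 bases before the ISRE core. Each runs 5′ to 3′ on the gene's own strand from 120 to 13 bases before the RefSeq start, with the motif letters in capitals. The windows are chr11:58214857-58214964 (plus) for Irgm2, chr11:58199436-58199543 (plus) for Igtp, chr11:48992259-48992366 (minus) for Tgtp1 and chr11:49064225-49064332 (minus) for Tgtp2. The Irgm2 and Tgtp1 windows lie inside the GENCODE gene spans given above, so their RefSeq starts differ from those gene starts. For Irgm2 and Tgtp2 no GENCODE transcript held the first 30 bases from the RefSeq start.
Irgm2: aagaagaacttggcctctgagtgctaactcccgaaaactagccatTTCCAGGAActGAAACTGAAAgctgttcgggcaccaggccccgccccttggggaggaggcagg
Igtp: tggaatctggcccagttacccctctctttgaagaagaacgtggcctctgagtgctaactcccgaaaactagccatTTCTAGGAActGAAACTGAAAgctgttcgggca
Tgtp1: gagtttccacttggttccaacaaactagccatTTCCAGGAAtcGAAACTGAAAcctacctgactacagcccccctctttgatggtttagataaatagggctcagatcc
Tgtp2: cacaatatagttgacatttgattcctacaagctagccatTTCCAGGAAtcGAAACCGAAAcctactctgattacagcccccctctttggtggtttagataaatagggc
Irgm1 held 2 overlapping ISRE cores and no GAS, shown here in 30 bases from 42 to 13 before its start (chr11:48871433-48871462, minus), a stretch that also lies in an exon of a longer annotated Irgm1 transcript.
Irgm1: agcctgtttcaaGAAATAGAAACCGAAAct
The Ifi47 window held neither set of letters. It lies before the first base of the gene span given above, and no bases further inside that span were searched. The ISRE core was in 2.98% of all 32851 promoters searched the same way, the GAS in 7.02% and both in 0.332%. The joined arrangement, a GAS with an ISRE core 2 bases after it, was in 5 promoters, or 0.0152%. Its spacing is that of the 4 members shown above, so this count describes the letters and is not a test of the members. Those 5 were Irgm2, Igtp, Tgtp1, Tgtp2 and Gm12185, which is itself an IRG family gene. The Igtp and Irgm2 windows were 69.9% identical over 250 bases, and those of Tgtp1 and Tgtp2 65.3%, against 48.7% to 56.3% for the other pairs, so these 2 pairs share more sequence than the motifs. All 4 of these genes also share the letters ctagccat directly before the GAS. A match describes the letters in this reference strain (C57BL/6J, whereas CT26 comes from BALB/c) and does not show that a factor binds.

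**Figure D1:**
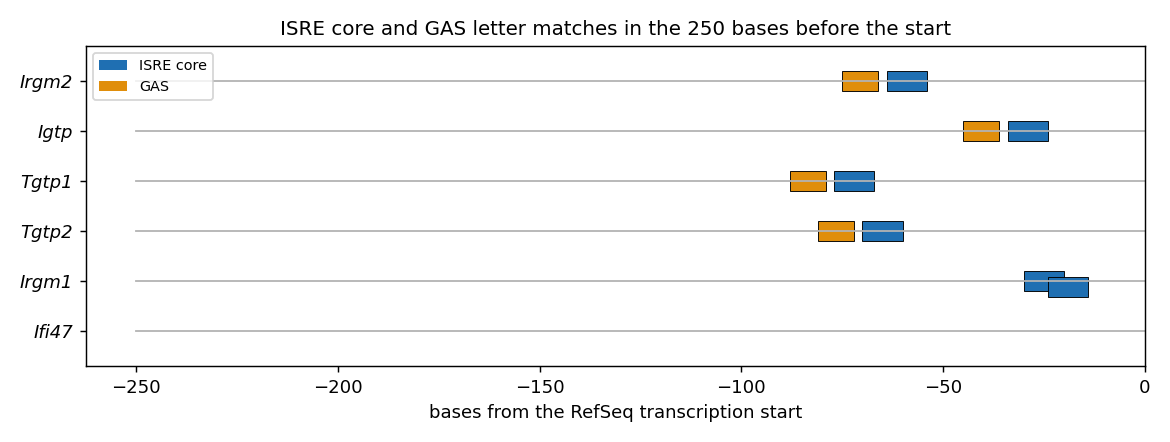
Positions of the ISRE core (blue) and GAS (orange) letters in the 250 bases before the RefSeq start of 6 members; the horizontal axis is in bases from the start. In Irgm2, Igtp, Tgtp1 and Tgtp2 the GAS lies directly 5′ of the ISRE core, between 88 and 25 bases before the start, and Ifi47 has neither in the window searched.

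Depth and labels were checked first. Libraries held 17284091 to 29233738 reads on genes in the knockdown experiment and 40119305 to 93697833 in the inhibitor experiment. Within each group the library-to-library correlation of log2 values over genes was 0.98 or more. Prmt1 had 5601, 5717 and 5620 normalized counts (reads divided by the library's size factor) in shControl and 669, 761 and 683 in shPrmt1, so the knockdown libraries match their labels. Epcam, the epithelial adhesion marker, was at 0 in all 15 libraries, while Vim, a mesenchymal intermediate filament gene, had 58943 or more normalized counts in each. The summed level of 8 epithelial markers was 540.6 to 660.7 in shPrmt1 against 724.2 to 810.0 in shControl, and 1760.1 to 1850.6 in MS023 and 1407.9 to 1609.1 in GSK3368715 against 1244.6 to 1415.2 in vehicle. It came mainly from Krt18 and Krt20, and Cdh1 and Vil1 did not exceed 3.3 normalized counts in any library. The summed level of 5 leukocyte markers did not exceed 28.1 in any library, with Cd3e at 0 in all 15, and 7 macrophage and dendritic markers summed to 212.1 to 265.2 in vehicle, 238.7 to 291.6 in MS023, 208.2 to 256.1 in GSK3368715, 42 to 48.4 in shControl and 35.4 to 52.1 in shPrmt1. The macrophage and dendritic sum came mainly from Cd68. Adgre1, Csf1r, Itgam and Itgax did not exceed 5.8 normalized counts in any library, Flt3 6.6 and Lyz2 16.1. The part of these marker levels in the results was not tested. The 2 tables were normalized separately, so levels are compared within an experiment only.

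All 8 IRG genes were higher after Prmt1 knockdown. The rise ran from 0.90 on the log2 scale for Ifi47 to 3.05 for Tgtp1, with a median of 1.85, where the median of all 11485 genes tested was -0.0036. All 8 passed the test (limma with Benjamini-Hochberg adjustment over all genes tested, adjusted p under 0.05, here termed called), where 7.50% of all genes were called higher. In all 8 every shPrmt1 library lay above every shControl library, an arrangement found in 19.2% of all genes. The summed normalized count of the 8 genes was 1648 ± 119 in shControl and 4516 ± 172 in shPrmt1 (mean ± SD, n = 3). Of each 1000000 reads on genes they took 72.25 to 82.36 in shControl and 211.9 to 223.8 in shPrmt1. Fold changes are differences of log2(normalized count + 1), which understates the change of genes with few counts. In bulk RNA, a higher level in each cell and a larger share of cells with the transcript cannot be told apart.

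Among the regulators, Irgm1, whose product protects host membranes and takes part in autophagy, stood at 915, 796 and 879 normalized counts in shControl cultures and at 2154, 2216 and 2161 after the knockdown. The difference was 1.34 on the log2 scale (SE 0.073, adjusted p = 3.85e-05 by limma). Irgm2, which sits mainly on Golgi membranes, had 294, 253 and 276 normalized counts in shControl and 854, 930 and 845 in shPrmt1. It was higher by 1.67 (log2, SE 0.090, adjusted p = 3.85e-05 by limma). Igtp, which is found at the endoplasmic reticulum, had 144, 118 and 135 normalized counts in shControl and 318, 331 and 383 in shPrmt1, a rise of 1.37 (log2, SE 0.12, adjusted p = 0.000392 by limma). The 95% confidence intervals of the 3 regulators were 1.17 to 1.5 for Irgm1, 1.47 to 1.88 for Irgm2 and 1.088 to 1.65 for Igtp, so their rises overlapped.

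Among the effectors, Iigp1 had 18.5, 11.5 and 16.6 normalized counts in shControl and 69.7, 107 and 72.5 in shPrmt1. The lowest shPrmt1 library was above the highest shControl library, and the rise was 2.34 (log2, SE 0.26, adjusted p = 0.0011 by limma). It rested on 15 to 21 reads in each shControl library and 61 to 88 in each shPrmt1 library. Tgtp1 had 14.97, 20.2 and 17.7 normalized counts in shControl and 121, 170 and 170 in shPrmt1, a rise of 3.05 (log2, SE 0.21, adjusted p = 0.000117 by limma). Tgtp2 had 96.0, 60.5 and 78.5 in shControl and 281, 347 and 322 in shPrmt1, a rise of 2.02 (log2, SE 0.18, adjusted p = 0.000353 by limma). The sum of both copies was 95.9 ± 15.1 and 470 ± 60.0 normalized counts (n = 3 each), higher by 2.29 (log2, 95% confidence interval 1.94 to 2.63), so the pair rose whichever way its shared reads were divided.

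Ifi47 had the smallest rise of the members, with 260, 251 and 258 normalized counts in shControl and 470, 495 and 469 in shPrmt1. The groups did not overlap, and the difference was 0.90 (log2, SE 0.083, adjusted p = 0.000423 by limma). Its 95% confidence interval, 0.708 to 1.086, lay below that of each of the other members, the nearest being Igtp at 1.088. Gm4951 had 13.2, 10.8 and 7.7 normalized counts in shControl, from 7 to 15 reads a library, and 76.6, 94.5 and 93.9 in shPrmt1. It was higher by 2.97 (log2, SE 0.25, adjusted p = 0.000283 by limma), the second largest change of the members after Tgtp1. Gm4951 passed the filter on low values only through shPrmt1, the group where it is high. With no filter it was still called higher, as were all 8 members. The least abundant members in shControl, Gm4951, Iigp1 and Tgtp1, had the 3 largest rises. The place of Tgtp1 in this order depends on how reads were divided between it and Tgtp2. Their sum had 95.9 normalized counts in shControl and a rise of 2.29, beside 2.34 for Iigp1 (log2).

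**Figure D2:**
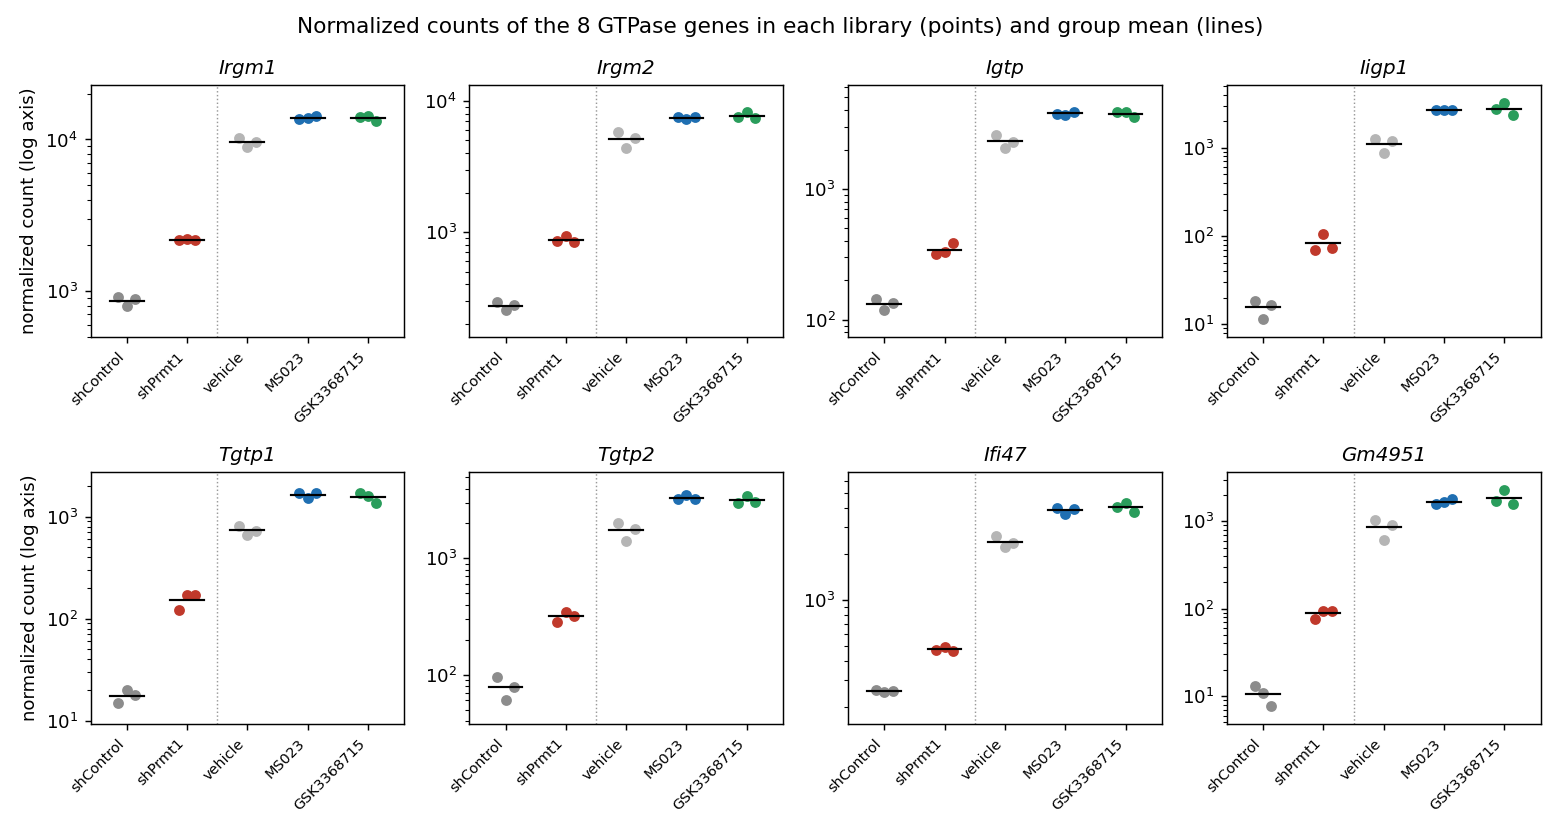
Normalized counts (log axis) of each member in each of the 15 libraries (points) with group means (lines); the dotted line separates the knockdown and inhibitor experiments, whose tables were normalized separately. In every panel the 3 shPrmt1 points lie above the 3 shControl points, and the MS023 and GSK3368715 points lie above the vehicle points.

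Both inhibitors were followed by higher levels of the same 8 genes, with smaller log2 differences for each gene than in the knockdown, a contrast between separately normalized tables that was not tested. With MS023 all 8 members were called higher, where 13.7% of all 13014 genes tested were called higher, and every MS023 library lay above every vehicle library in all 8, against 22.4% of all genes. With GSK3368715 all 8 were called higher, where 5.16% of all genes were, and the groups did not overlap in all 8, against 13.7% of all genes. The median member difference was 0.83 with MS023 and 0.81 with GSK3368715 (log2), with medians over all genes of 0.0028 and 4e-04. The comparisons share the 3 vehicle libraries, so they are not independent of each other. The summed normalized count of the members was 23860 ± 2675 with vehicle, 38370 ± 760 with MS023 and 38790 ± 2584 with GSK3368715 (mean ± SD, n = 3). Of each 1000000 reads on genes the members took 348.1 to 443.6 with vehicle, 643.3 to 668 with MS023 and 606.8 to 695.9 with GSK3368715.

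Irgm1 and Irgm2 had the smallest differences of the members. Irgm1 had 10300, 8856 and 9602 normalized counts with vehicle, 13736, 13794 and 14286 with MS023, and 14158, 14319 and 13218 with GSK3368715. It was higher by 0.54 (log2, SE 0.061) with each compound, with adjusted p = 0.000202 for MS023 and 0.000933 for GSK3368715 by limma. Irgm2 had 5799, 4402 and 5209 with vehicle, 7520, 7268 and 7617 with MS023, and 7528, 8294 and 7358 with GSK3368715. Its difference was 0.55 with MS023 and 0.60 with GSK3368715 (log2, SE 0.089, adjusted p = 0.00148 and 0.00365 by limma). Igtp had 2586, 2057 and 2275 with vehicle, 3771, 3679 and 3898 with MS023, and 3871, 3884 and 3538 with GSK3368715. Its differences were 0.72 and 0.71 (log2, SE 0.080, adjusted p = 0.000186 and 0.000902 by limma). In each of the 3 regulators the treated libraries lay close together and above all vehicle libraries.

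Iigp1 had the largest difference of the members with either compound. It had 1258, 868 and 1193 normalized counts with vehicle, 2655, 2674 and 2691 with MS023, and 2772, 3225 and 2356 with GSK3368715. The rise was 1.29 with MS023 and 1.34 with GSK3368715 (log2, SE 0.14, adjusted p = 0.000156 and 0.00065 by limma). Tgtp1 had 818, 666 and 727 with vehicle, 1686, 1512 and 1722 with MS023, and 1723, 1605 and 1367 with GSK3368715, giving differences of 1.16 and 1.08 (log2, SE 0.10, adjusted p = 6.12e-05 and 0.000492 by limma). Tgtp2 had 2034, 1411 and 1784 with vehicle, 3248, 3489 and 3233 with MS023, and 3000, 3436 and 3041 with GSK3368715, giving differences of 0.95 and 0.87 (log2, SE 0.11, adjusted p = 0.000289 and 0.00185 by limma). The sum of the Tgtp pair was 2480 ± 388, 4963 ± 34.1 and 4724 ± 317 normalized counts in the 3 groups (n = 3 each), higher by 1.01 with MS023 and 0.94 with GSK3368715 (log2, SE 0.098).

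Ifi47 had 2619, 2224 and 2349 normalized counts with vehicle, 4014, 3636 and 3949 with MS023, and 4057, 4301 and 3761 with GSK3368715. Its differences, 0.69 and 0.75 (log2, SE 0.075, adjusted p = 0.000168 and 0.00055 by limma), lay between those of Irgm2 and Igtp with MS023 and above those of all 3 regulators with GSK3368715. Gm4951 had 1028, 617 and 913 with vehicle, 1566, 1658 and 1806 with MS023, and 1695, 2310 and 1566 with GSK3368715. It was higher by 1.01 and 1.13 (log2, SE 0.18, adjusted p = 0.00274 and 0.00514 by limma) and was the most variable member among vehicle libraries. The members shared an order within that group, since vehicle replicate 1 was the highest and vehicle replicate 2 the lowest of the 3 in all 8. GSK3368715 replicate 3 was likewise the lowest of its group in 7 of 8, Tgtp2 being the exception. In the knockdown, shControl replicate 2 and shPrmt1 replicate 1 were each the lowest in 6 of 8. How many of all genes share these orders was not counted, so they describe the libraries and are not shown to be particular to the members.

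The compounds were compared with each other at the matched dose and time. By limma 0 of 8 members were called, where 0.515% of all genes were called in either direction, 0 had an unadjusted p under 0.05, and edgeR and DESeq2 called 0. The libraries overlapped in all 8, and the share of all genes with such overlap was not counted. The 8 differences, GSK3368715 minus MS023, ran from -0.075 for Tgtp2 to 0.13 for Gm4951 (log2). The 95% confidence interval was -0.14 to 0.13 for Irgm1, -0.15 to 0.24 for Irgm2, -0.18 to 0.17 for Igtp and -0.10 to 0.23 for Ifi47. It was wider for the others, at -0.26 to 0.35 for Iigp1, -0.30 to 0.16 for Tgtp1, -0.33 to 0.18 for Tgtp2 and -0.28 to 0.53 for Gm4951. The sum of Tgtp1 and Tgtp2 had a difference of -0.073 (log2, 95% confidence interval -0.29 to 0.14). Adjusted p-values (limma, 1 test per gene over all genes) were 0.772 to 0.98. Differences inside these intervals were not detectable here, and the test does not show that the compounds act alike.

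**Figure D3:**
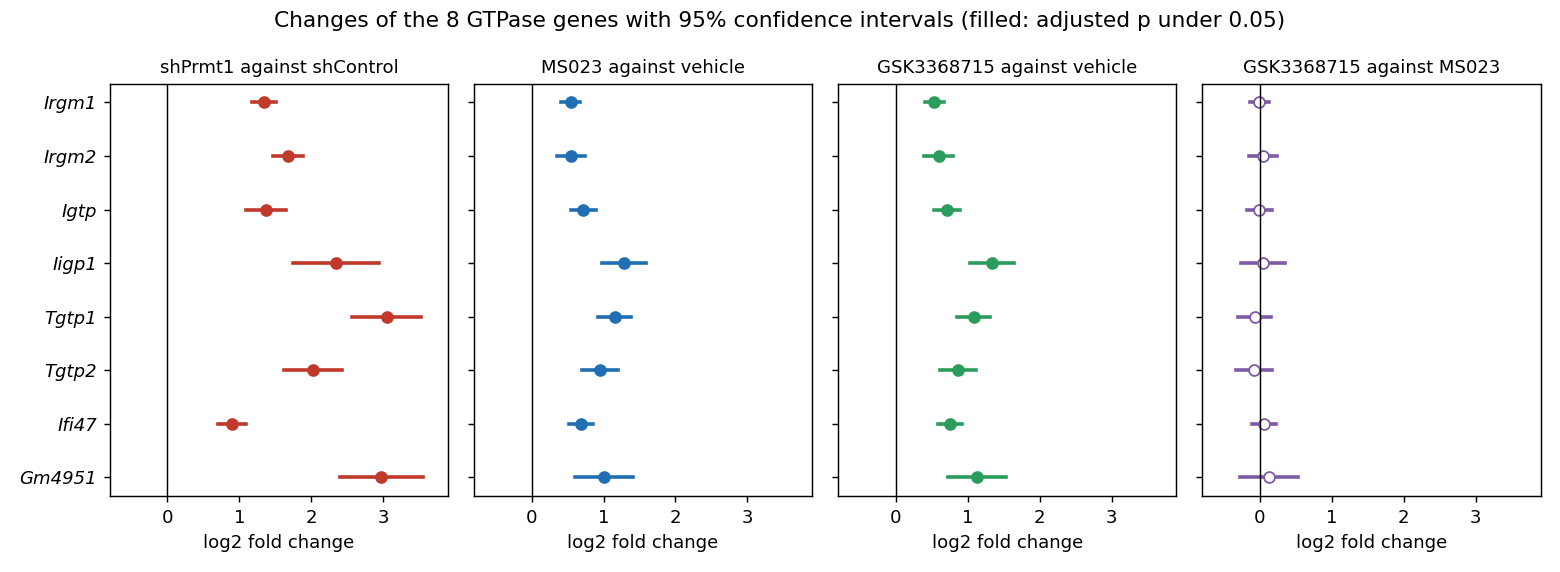
Log2 fold change of each member with its 95% confidence interval (lines) in 4 comparisons; filled points had an adjusted p under 0.05. All 8 points are filled and right of 0 in the first 3 panels, from 0.54 to 3.05, and open and within 0.13 of 0 between the compounds.

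Levels per length placed Irgm1 first in every group. Normalized counts were divided by the length of the longest coding transcript, from 1773 bases for Ifi47 to 3528 for Irgm2. In shControl, Irgm1 stood at 382 ± 27.1 normalized counts per kb, followed by Ifi47 (144 ± 2.7), Irgm2 (77.8 ± 5.8), Igtp (65.5 ± 6.6) and Tgtp2 (27.9 ± 6.3), with no overlap between neighbours in this order (n = 3 each). Tgtp1 (6.24 ± 0.92 per kb), Iigp1 (4.98 ± 1.15) and Gm4951 (4.001 ± 1.04) came last and overlapped. In shPrmt1 the order of the first 6 genes was unchanged, from 964 ± 15.01 per kb for Irgm1 to 54.5 ± 10 for Tgtp1, and Gm4951 (33.4 ± 3.9) overlapped Iigp1 (26.6 ± 6.6). With vehicle, Irgm1 stood at 4243 ± 320 per kb, and Irgm2 (1456 ± 199), Ifi47 (1352 ± 114) and Igtp (1140 ± 132) overlapped in turn. Tgtp2 (620 ± 111) was next, and Iigp1, Gm4951 and Tgtp1 were again last, at 354 ± 66.8, 322 ± 80.2 and 261 ± 27.0 per kb. With MS023 and GSK3368715 the same 3 genes were last, and Irgm1 stood at 6170 ± 134 and 6152 ± 263 per kb.

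The members' shares of their summed normalized count were also compared. The 3 regulators made up 77.1 ± 0.29% of the members' normalized counts in shControl and 75.2 ± 1.2% in shPrmt1. They made up 71.4 ± 1.0% with vehicle, 65.7 ± 0.15% with MS023 and 65.5 ± 1.3% with GSK3368715 (mean ± SD, n = 3). Irgm1 alone was 52.4 ± 0.29% in shControl and 48.2 ± 1.2% in shPrmt1, and 40.3 ± 1.5% with vehicle, 36.3 ± 0.32% with MS023 and 35.9 ± 1.1% with GSK3368715. Its treated libraries lay below its control libraries in all 3 comparisons. Ifi47 went from 15.6 ± 0.85% in shControl to 10.6 ± 0.22% in shPrmt1, without overlap, and was 10.1 ± 0.41% with vehicle, 10.1 ± 0.43% with MS023 and 10.4 ± 0.04% with GSK3368715. Iigp1 was 0.93 ± 0.16% in shControl, 1.83 ± 0.39% in shPrmt1, 4.61 ± 0.44% with vehicle, 6.97 ± 0.11% with MS023 and 7.15 ± 0.64% with GSK3368715.

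The share of Tgtp1 in the Tgtp pair was lowest in shControl, which was not tested. It was 13.49% of 126 reads (95% Wilson interval 8.6 to 20.55%), 25.0% of 112 (17.9 to 33.76%) and 18.39% of 87 (11.65 to 27.81%) in the shControl libraries. In shPrmt1 it was 30.11% of 352 reads (25.56 to 35.1%), 32.86% of 426 (28.57 to 37.46%) and 34.65% of 482 (30.54 to 39.0%). All shPrmt1 shares lay above all shControl shares, although the interval of shControl replicate 2 overlapped those of the 3 shPrmt1 libraries, and that of shControl replicate 3 overlapped shPrmt1 replicate 1. The share was 28.68 to 32.06% with vehicle, 30.23 to 34.75% with MS023 and 31.01 to 36.48% with GSK3368715, on 2082 to 7897 reads a library. The intervals cover counting error only, not the error of dividing reads between 2 near-identical transcripts.

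**Figure D4:**
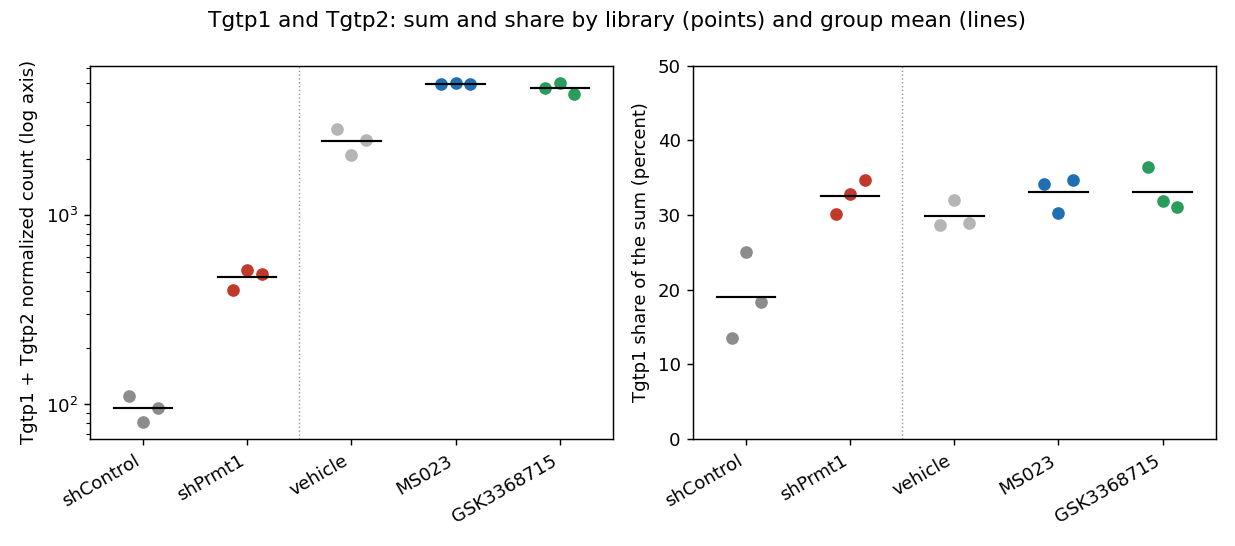
Left, summed normalized count of Tgtp1 and Tgtp2 (log axis); right, Tgtp1 as a percent of the sum; points are libraries, lines are group means, and the dotted line separates the experiments. The sum is higher in every treated library than in its controls, and the shControl shares, 13.49 to 25.0%, are the lowest of the 15.

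Other IRG family genes gave mixed results. Of 9 further family genes in the tables, 5 passed the filter on low values in the knockdown experiment and 3 of them were called higher, where 7.50% of all genes were. They were 9930111J21Rik1 (71.8 to 280 normalized counts, log2 difference 1.95), F830016B08Rik (3.75 to 14.97, 1.84) and 9930111J21Rik2 (515 to 1269, 1.30). F830016B08Rik had 2.2 to 6.2 normalized counts in the shControl libraries, so it passed the filter only through shPrmt1, the group where it is high. The first and last are close copies, with 56.73% of the 150-base windows of 9930111J21Rik1 found in 9930111J21Rik2, so the split between them is uncertain. Gm12185, whose promoter carried the joined motif, had a log2 difference of 0.24 with an SE of 0.75 and was not called, and its mean count lay the other way (15.5 in shControl, 11.6 in shPrmt1). That shControl mean rested on 1 library at 37.9, the others being at 4.3 and 4.4, against 8.0 to 14.5 in shPrmt1. Irgq, a family member that is not known as interferon inducible, had -0.25 (adjusted p = 0.111 by limma). With the inhibitors 8 of the 9 were tested, and 2 were called higher with MS023 and 4 with GSK3368715, where 13.7% and 5.16% of all genes were. F830016B08Rik and Gm4841, both in the chromosome 18 cluster, were called higher with MS023 (1.46 and 1.08, log2) and with GSK3368715 (1.4 and 1.07). 9930111J21Rik1 and 9930111J21Rik2, which lie between the members of the first chromosome 11 cluster, had differences of 0.13 and 0.03 with MS023 and of 0.36 and 0.29 with GSK3368715, and the first was called with GSK3368715 only. Their difference between the compounds was not called (adjusted p = 0.296 and 0.258 by limma). In both, every GSK3368715 library lay above every MS023 library, an arrangement whose share over all genes was not counted. Gm12185 had 0.51 with MS023 (adjusted p = 0.0674 by limma) and was called with GSK3368715 (0.72), and Gm12250 (0.96 and 1.28), Gm5431 (-0.06 and 0.19) and Irgq (-0.13 and -0.19) were not called with either. Between the compounds 0 of the 8 were called by limma, edgeR or DESeq2, where limma called 0.515% of all genes in either direction. An unadjusted p under 0.05 by limma was found for 2 of them. The median difference of the tested family genes was 1.30 in the knockdown, 0.32 with MS023 and 0.54 with GSK3368715.

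Neighbouring genes of other families were counted for comparison. Within 250 kb of a member, 18 genes outside the family were tested in the knockdown, with a median difference of 0.0045 (log2). Of these, 2 were called, where 14.7% of all genes were called in either direction, and both were higher, namely Psme2b (1.16), a copy of the proteasome activator gene Psme2, and Dctn4 (0.32), a dynactin subunit. With MS023, 23 were tested, with a median of -0.027, and 6 were called, where 27.9% of all genes were. BC023105 (1.47), Synpo (0.39) and Zfp672 (0.23) were called higher, and Smim3 (-0.32), Larp1 (-0.28) and Mrpl22 (-0.23) lower. With GSK3368715, 1 of 23, again BC023105 (1.4), was called, where 9.64% of all genes were, and the median was 0.0235. BC023105 is annotated by RefSeq as a pseudogene and lies 49.13 kb from Iigp1. It had 24.0 normalized counts with vehicle, 65.7 with MS023 and 62.9 with GSK3368715.

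**Figure D5:**
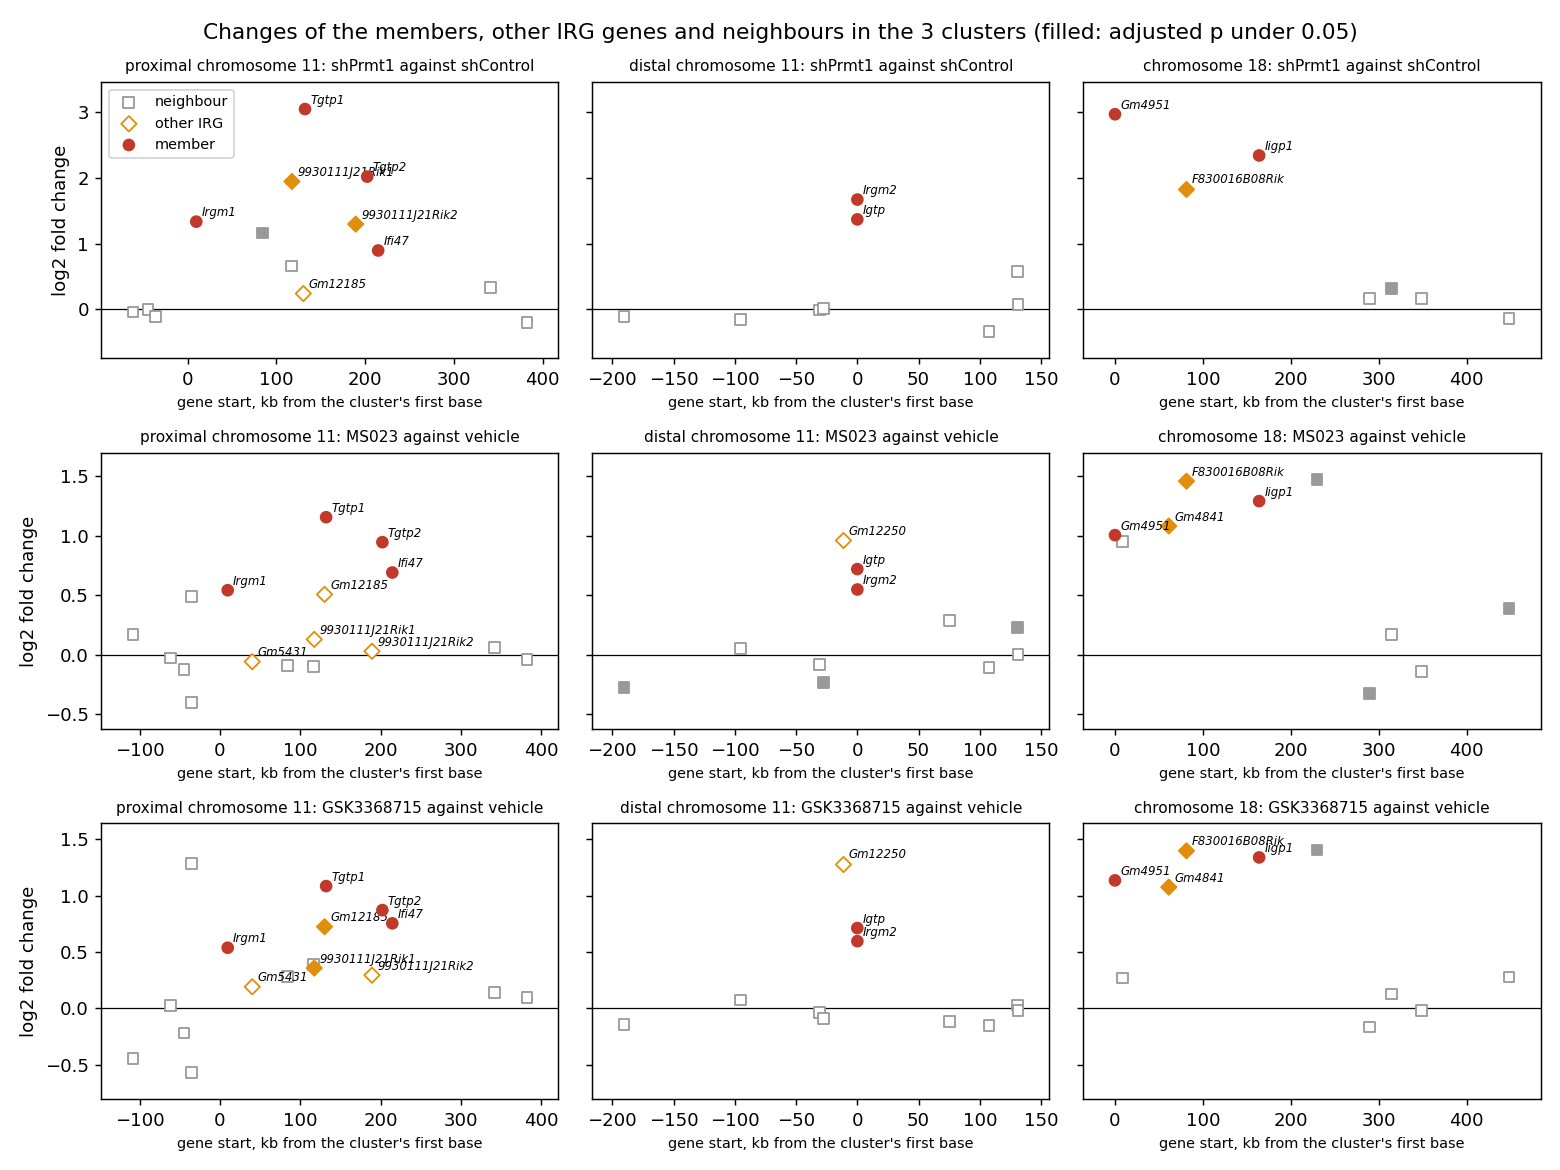
Log2 fold change against the position of the gene start, in kb from the first base of each cluster, for members (red circles), other IRG genes (orange diamonds) and neighbours (grey squares) in 3 clusters and 3 comparisons; filled symbols had an adjusted p under 0.05. Members lie above 0.5 in all panels, while most neighbours lie near 0 and are open.

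Genes that act with the IRGs were described from fixed lists. The guanylate-binding proteins (GBPs), which load onto the same vacuoles, had 7 of 8 tested genes called higher in the knockdown, 10 of 11 with MS023 and 9 of 11 with GSK3368715, where 7.50%, 13.7% and 5.16% of all genes were. Gbp4 (2.52), Gbp9 (2.08) and Gbp7 (1.93) had the largest log2 differences in the knockdown, Gbp2 (1.52), Gbp2b (1.45) and Gbp8 (1.26) with MS023, and Gbp2 (1.34), Gbp2b (1.32) and Gbp5 (1.11) with GSK3368715. Gbp4 had 6.2 to 7.9 normalized counts in shControl and passed the filter on low values only through shPrmt1. Gbp8 had 9.1 to 20.5 with vehicle, so it too needed treated libraries to pass. The list's median was 1.83, 1.06 and 0.93 in turn. Gvin2, a very large interferon-inducible GTPase and the 1 gene of its list that passed the filter, was called higher in all 3 comparisons (2.28, 0.49 and 0.63).

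Of the genes on a list for interferon signalling, 5 of 17 were called higher in the knockdown, 8 of 18 with MS023 and 5 of 18 with GSK3368715. Of all genes 7.50%, 13.7% and 5.16% were. None on the list was called lower by limma, edgeR or DESeq2. The list also held Socs1, Socs3 and Nlrc5, which do not themselves carry the signal to IRG promoters. Among those called were the transcription factor genes Irf7 (1.80) and Irf9 (0.64) in the knockdown. With MS023 they included Nlrc5 (1.08), the transactivator of MHC class I genes, Irf7 (0.93) and Stat2 (0.66), and with GSK3368715 Irf7 (0.68) and Stat2 (0.59). The list's median log2 difference was 0.14, 0.23 and 0.26. The 4 receptor chain genes Ifnar1, Ifnar2, Ifngr1 and Ifngr2 were not called in any of the 3, with differences from -0.11 to 0.16.

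The products of autophagy conjugation genes guide IRG and GBP proteins to vacuoles. In the knockdown 2 of 10 were called higher (7.50% of all genes), Map1lc3a (0.85) and Atg12 (0.45), and with MS023 1 of 10 (13.7% of all genes), Map1lc3a (0.44). With GSK3368715 limma, edgeR and DESeq2 called 0 of the 10 (5.16% of all genes called higher by limma), and Map1lc3a, the 1 gene with an unadjusted p under 0.05, had 0.39 (adjusted p = 0.075 by limma). The list's median was 0.10, 0.088 and 0.062 (log2). Of 6 ubiquitin ligase and adaptor genes recruited to coated vacuoles, Trim21 (1.10), Rnf213 (0.84) and Sqstm1 (0.40) were called higher in the knockdown and Nbr1 lower (-0.28). Over all genes 7.50% were called higher there and 14.7% in either direction. Trim21 and Rnf213 were called higher with MS023 (0.58 and 0.35) and with GSK3368715 (0.49 and 0.56), where 13.7% and 5.16% of all genes were. The MS023 call of Rnf213 was marginal, with overlapping libraries and an adjusted p of 0.0498 by limma, 0.051 by edgeR and 0.0164 by DESeq2. The median of these 6 was 0.31, 0.23 and 0.099.

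The genes most like the members across all 15 libraries were Cmpk2, Gvin-ps1, Gbp7, Trim12c and Oas2, by Pearson's r to the members' mean profile over 11471 genes tested in both tables. Each library's log2 value was taken as a difference from the control mean of its own experiment. The r was 0.992 for Cmpk2, a mitochondrial nucleotide kinase gene, 0.9903 for the pseudogene Gvin-ps1, 0.989 for Gbp7, 0.989 for Trim12c and 0.987 for Oas2, an antiviral oligoadenylate synthetase gene. The members' own r ran from 0.911 for Ifi47 to 0.996 for Irgm1. Since the 15 libraries fall into treated and control groups, this r mostly ranks genes by how alike their group differences are. Cmpk2 was higher by 1.49 in the knockdown, 0.79 with MS023 and 0.78 with GSK3368715, and Oas2 by 2.16, 1.18 and 1.00 (log2).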

How the data were processed

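RNA-seq libraries were made with a poly(A) mRNA kit and sequenced as 150-base pairs on a NextSeq 500. Per the labels, the authors quantified reads with Salmon 1.4.0 on mm10 and normalized them with DESeq2 (version not given in the sources used here). The deposited values are a signal: gene counts divided by a size factor, in a table per experiment. Whole reads were recovered from the steps of these values (100% of 34432 values per library within 0.01 of a whole number). The authors' 3 tables of fold changes and p-values were not used, and 0 columns were left unmapped.

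Genes that reached 10 normalized counts in 3 or more libraries were tested with limma 3.58.1 (trend, two-sided) on log2(value + 1), with Benjamini-Hochberg adjustment over all genes tested and a threshold of 0.05. All 3 inhibitor groups entered 1 fit. Tgtp1 and Tgtp2 were also replaced by their sum. Alternatives were edgeR 4.0.16 and DESeq2 1.42.0 on recovered reads, pseudocounts of 0.5 and 5, filters of none and 50, other scalings, no trend, a replicate block, and leaving out each library. The steps were tested on simulated data. Gene positions came from GENCODE M21, promoters from RefSeq.

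The members and gene lists were chosen with earlier results of these data known. Named were every member, further IRG genes that passed the filter, up to 3 called genes per list with the largest change (1 gene that this rule names is not reported here), called neighbours within 250 kb, and the 5 genes most like the members. The receptor genes, Irgq and Map1lc3a with GSK3368715 were named in addition, after their values were seen. Replicates are biological replicates per the labels.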

Additional observations from a re-analysis of the deposited data

How the results depend on the processing

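The number of members called higher was 8 of 8 in the knockdown, with MS023 and with GSK3368715 under each of the alternatives run, and 0 were called between the compounds under each of them. Leaving out each library in turn, the Tgtp sum differed by 2.17 to 2.40 (log2) in the knockdown, 0.89 to 1.12 with MS023 and 0.82 to 1.05 with GSK3368715. The differences between the compounds that changed sign when a library was left out, none of them called, ranged from -0.027 to 0.031 for Irgm1, -0.0047 to 0.082 for Irgm2, -0.031 to 0.036 for Igtp, -0.065 to 0.16 for Iigp1, -0.14 to 0.022 for Tgtp1 and -0.039 to 0.24 for Gm4951. Whether the replicate numbers pair the libraries was not tested, and the main fits use no pairing. Correlations of same-numbered libraries, as deviations from their group means, ran from -0.102 to 0.116 over both experiments. In the knockdown they were 0.061, 0.116 and 0.081, against -0.094 to 0.033 for libraries of unlike number. Each knockdown library thus correlated best with its own number. With the replicate block, 8 members were called higher in each of the 3 comparisons and 0 between the compounds, and the genes called in the knockdown numbered 2671 in place of 1684. Over all genes, leaving out 1 library gave 652 to 2472 calls in the knockdown, 2409 to 3409 for MS023 and 586 to 1274 for GSK3368715, where 1684, 3625 and 1254 were called with all libraries. Counts moved by over 1.5 times without shControl replicate 1 (652), 2 (883) or 3 (723), without shPrmt1 replicate 3 (1072), without MS023 replicate 2 (2409), and, for GSK3368715, without vehicle replicate 3 (586) or GSK3368715 replicate 1 (757) or 3 (778). GSK3368715 against vehicle alone, without the MS023 libraries, called 597. Against MS023, GSK3368715 gave 67 calls, but 2 to 11 on leaving out a library, 4 with the replicate block, 8 without a trend, 38 without a filter, 100 from these groups alone and 365 by DESeq2. Scaling each library to the same total gave 1082 higher of 1748 called in the knockdown (861 of 1684 otherwise) and 2200 of 3709 with MS023 (1784 of 3625). The members with fewest reads, Gm4951, Iigp1 and Tgtp1 in shControl, limit the precision of the knockdown differences: Gm4951 ranged from 2.59 to 3.05 and Tgtp1 from 2.80 to 3.12 across the settings other than leaving out a library.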
